A study of Mus musculus with 2 samples.

Results

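The peaks described here are the LSD1 binding sites called on mouse chromosome 15 between 48 and 70 Mb (build mm9), a stretch that was chosen because peaks are frequent in it. All peaks of chromosome 15 whose start lay in that interval were taken, which gave 335 of the 11797 peaks in the deposited list. They were 3.10% of the 10806 autosomal peaks, on 0.915% of the autosomal span, and 32.1% of the 1044 peaks of chromosome 15, on 21.98% of its span. Density was the ground for the choice, and score and length come from the same comparison of the same libraries. Every value below is therefore a description, and no p-value is given.

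The study placed LSD1 on the genome of C2C12 cells, a mouse myoblast line that forms myotubes when serum is lowered. There was 1 chromatin immunoprecipitation (ChIP) library made with an LSD1 antibody and 1 input library, made from sheared chromatin with no antibody step. Both came from cells grown with 10% fetal bovine serum and then kept for 48 h in 2% horse serum, with 25 mM glucose throughout. Cells were fixed with formaldehyde and with disuccinimidyl glutarate, a longer crosslinker that also holds proteins bound to each other, so LSD1 may be held at a peak through other proteins. No label gives an untreated or LSD1-depleted group, so the list has no time or dose comparison, and 1 library of each kind leaves no replicate error.

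LSD1 (KDM1A) is an amine oxidase that removes methyl groups from lysine 4 of histone H3 and works in complexes with CoREST and histone deacetylases. In muscle cells it is known as a cofactor in the switch from growing myoblasts to myotubes. This stretch takes its working name from Myc, which encodes a growth-promoting transcription factor and lies in a long interval with few protein-coding genes. Such gene deserts are known to hold enhancers that act over long distances, and those around Myc act in different tissues. In the order of protein-coding genes in RefSeq (GRCm38.p6), Myc is followed by members of the gasdermin C family (Gsdmc, Gsdmc2) and preceded by A1bg and Lratd2. That table is of another build than the peaks, so it gives order only. No peak was tied to a gene, and whether the stretch is poor in genes was not tested.

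LSD1 peaks were dense in most of the stretch but not evenly so. The stretch held 15.2 peaks per Mb, against 9.08 in the rest of chromosome 15 and 4.24 in the 18 other autosomes. The ratios were 1.68 to the rest of chromosome 15 (95% interval 1.47 to 1.91) and 3.59 to the other autosomes (3.21 to 4.01). These intervals are exact binomial ones, and those of medians below are order-statistic ones. All cover counting error only and treat peaks as independent, although peaks lie in groups. Peak sequence covered 8.62 kb of each Mb in the stretch, 4.99 kb in the rest of chromosome 15 and 2.34 kb in the other autosomes.

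The borders lay in sequence that was sparse for chromosome 15, where 1 Mb windows outside the stretch held a median of 8 peaks. Windows of the other autosomes held a median of 3, so sparse here and below means few peaks for this chromosome. The last peak before the stretch was at chr15:47799631-47800176 (score 82.87), and the first member followed at chr15:48553463-48553758 (67.31). The last member was at chr15:69848847-69849211 (52.29), and the first peak after it at chr15:70077547-70077823 (50.5). The 4 windows of 1 Mb before the stretch held 8, 6, 2 and 4 peaks, and the 4 after it held 4, 11, 7 and 8. The outer windows inside the borders were about as sparse as these flanks, with 4, 6 and 8 peaks at the start and 6 and 5 at the end. The stretch was chosen from these same peaks, so sparse flanks may be part of that choice and are only described. From 38 to 45 Mb, an interval that takes in the first of the 4 windows before the stretch, the density was 14.1 peaks per Mb.

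Within the stretch, the 1 Mb windows fell into 4 raised blocks parted by sparse windows. The first 3 windows, from 48 to 51 Mb, held 4, 6 and 8 peaks. The first block, from 51 to 53 Mb, held 15 and 28 peaks. The next 2 windows, from 53 to 55 Mb, held 7 and 9.

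The second block, from 55 to 60 Mb, was the densest, with 36, 28, 16, 25 and 14 peaks in its windows. Its 119 peaks were 35.5% of the stretch and gave 23.8 per Mb. The window from 60 to 61 Mb then held 4 peaks, as few as any in the stretch. The third block, from 61 to 65 Mb, held 17, 27, 17 and 24 peaks, or 21.2 per Mb.

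The last block was smaller. After a window of 6 peaks, from 65 to 66 Mb, the next 2 held 20 and 13, and the last 2 windows held 6 and 5. The 5 fullest windows together held 144 peaks, 43.0% of the stretch, and the other 17 averaged 11.2. Without those 5 windows, an alternative chosen after seeing the data, the density ratio was 2.65 to the other autosomes and 1.24 to the rest of chromosome 15.

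**Figure D1:**
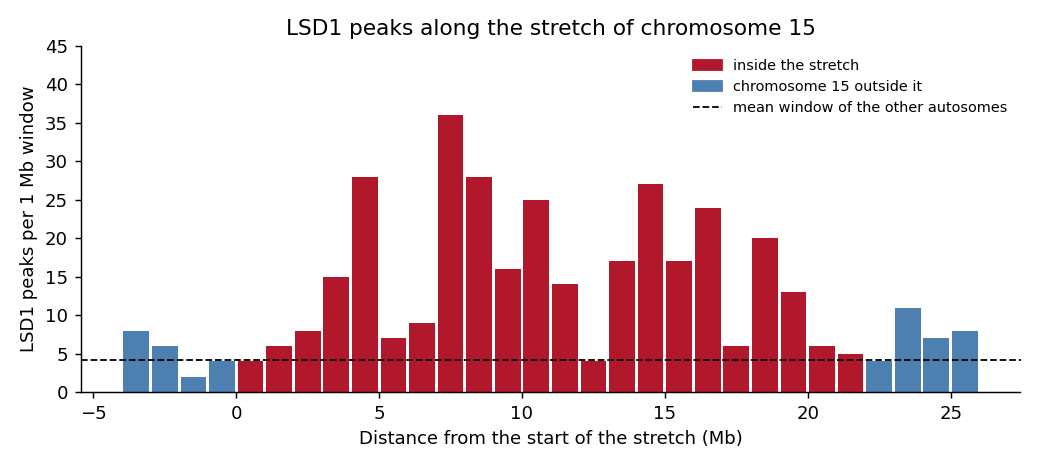
Number of LSD1 peaks (y axis) in each 1 Mb window (x axis, distance in Mb from the start of the stretch) inside the stretch (red) and in 4 windows on each side (blue). The dashed line is the mean window of the 18 other autosomes, 4.20 peaks, and 20 of the 22 windows of the stretch lie above it.

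All 22 windows of the stretch held at least 4 peaks, with a median of 14.5 and a highest value of 36. In the rest of chromosome 15 the median of 77 windows was 8, with 3 windows (3.90%) empty and a highest value of 37. In the other autosomes the median of 2280 windows was 3, and 234 windows (10.3%) held no peak. Windows of 20 or more peaks made up 7 of 22 in the stretch (31.8%). They were 6 of 77 in the rest of chromosome 15 (7.79%) and 29 of 2280 in the other autosomes (1.27%). The highest window of the other autosomes held 167 peaks, far above any in the stretch. The variance of the count per window was 5.87 times its mean in the stretch, 5.26 times in the rest of chromosome 15 and 9.88 times in the other autosomes.

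On the scale of 22 Mb the stretch was not the fullest of the autosomes. Runs of 22 neighbouring windows reached 392 peaks on chromosome 8 (80 to 102 Mb) and 365 on chromosome 4 (128 to 150 Mb). On chromosome 15 the fullest run, from 50 to 72 Mb, held 340. Chromosome 13 came next with 205, and the highest runs of the remaining autosomes lay between 87 peaks (chromosome 9) and 183 (chromosome 10). Low runs were also higher on chromosome 15: its lowest held 95 peaks, above the median run of 12 of the other 18 autosomes.

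Windows with more peaks also held stronger and longer ones. The 188 peaks of the 7 windows with 20 or more had a median score of 95.5 (interval 84.5 to 106) and a median length of 541 bp (511 to 597). The 92 peaks of the 6 windows with 10 to 19 had medians of 88.6 (71.2 to 96.2) and 486 bp (428 to 574). The 55 peaks of the 9 windows with 4 to 9 had medians of 58.9 (54.6 to 67.7) and 357 bp (315 to 412). The intervals of the sparsest class did not overlap those of the other classes, in score or in length. The 3 windows from 61 to 64 Mb went against this order: they held 17, 27 and 17 peaks with median scores of 71.25, 68.27 and 69.66, close to those of sparse windows.

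Sparse windows of the stretch held weaker peaks than windows with as few peaks on the other autosomes. In windows of 4 to 9 peaks, the median score was 72.1 (65.4 to 78.2) in the rest of chromosome 15 and 78.6 (77.1 to 79.9) in the other autosomes. The interval of the stretch overlapped that of the rest of chromosome 15 and lay below that of the other autosomes. Over windows of at least 4 peaks, Spearman's rho between the number of peaks and their median score was 0.76 in the 22 windows of the stretch, 0.37 in 62 windows of the rest of chromosome 15 and 0.16 in 1024 windows of the other autosomes. For median length the coefficients were 0.69, 0.25 and 0.19. These coefficients are descriptions: all windows share the same 2 libraries, and neighbouring windows are not independent. They also cover unlike ranges of counts: windows of 4 to 9 peaks were 9 of 22, 34 of 62 and 854 of 1024. In windows of 4 to 9, 10 to 19 and 20 or more peaks, the other autosomes had median lengths of 437, 479 and 531 bp. Their median scores were 78.6, 84.4 and 82.9. The rest of chromosome 15 had 431, 428 and 517 bp, with scores of 72.1, 77.7 and 89.0.

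**Figure D2:**
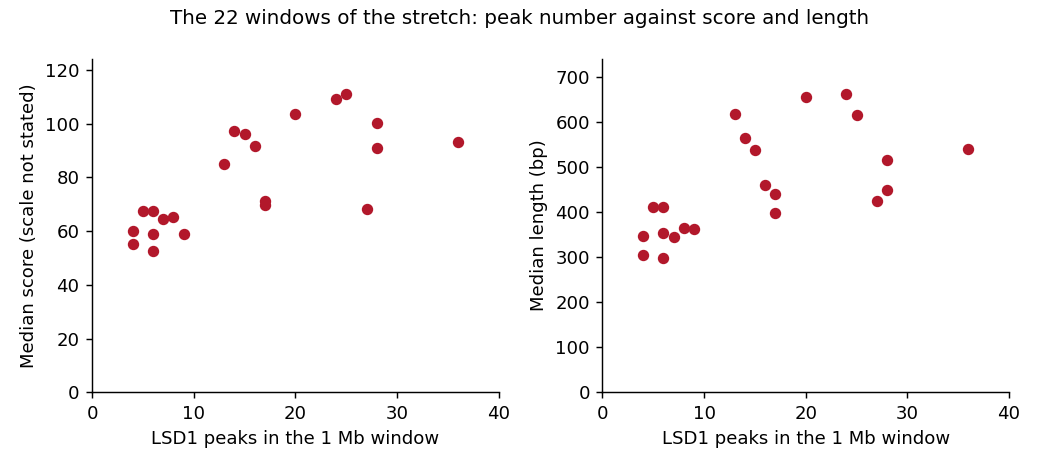
Median score (left, scale not stated by the authors) and median length in bp (right) of the peaks in each 1 Mb window of the stretch, against the number of peaks in that window, with 1 point per window. Median scores run from 52.55 to 111 and median lengths from 299 to 661.5 bp, and the windows with few peaks lie low in both.

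The score is the value the authors' peak caller gave each peak, and it serves here only to rank peaks within this list. Scores in the stretch ran from 50.26 to 734.1, with a median of 84.38 (interval 76.73 to 91.74) and quartiles of 59.98 and 130.1. The median was 77.84 (74.18 to 81.02) in the rest of chromosome 15 and 78.41 (77.5 to 79.2) in the other autosomes. The interval of the stretch held both of these medians, which does not show that the scores are alike. Of the 335 members, 182 (54.3%) reached the median score of the whole list, 78.25, against 49.6% in the rest of chromosome 15 and 50.1% in the other autosomes.

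The higher density was present in all classes of score. The list was split at its quartiles of score into 4 classes. In the lowest class the stretch held 84 peaks, 3.66 times the density of the other autosomes (interval 2.90 to 4.54). In the second class it held 69, at 2.94 times (2.28 to 3.73), and in the third 84, at 3.62 times (2.88 to 4.50). In the top class it held 98, at 4.16 times (3.37 to 5.10). The intervals of the 4 classes overlap each other. These ratios come from the peaks whose density led to the choice of the stretch, so they only describe it.

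Against the rest of chromosome 15 the ratio was 1.55 (1.19 to 2.02) in the lowest class, 1.48 (1.10 to 1.98) and 1.54 (1.18 to 1.99) in the middle classes and 2.20 (1.69 to 2.85) in the top class. The interval of the top class overlaps those of the others.

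**Figure D3:**
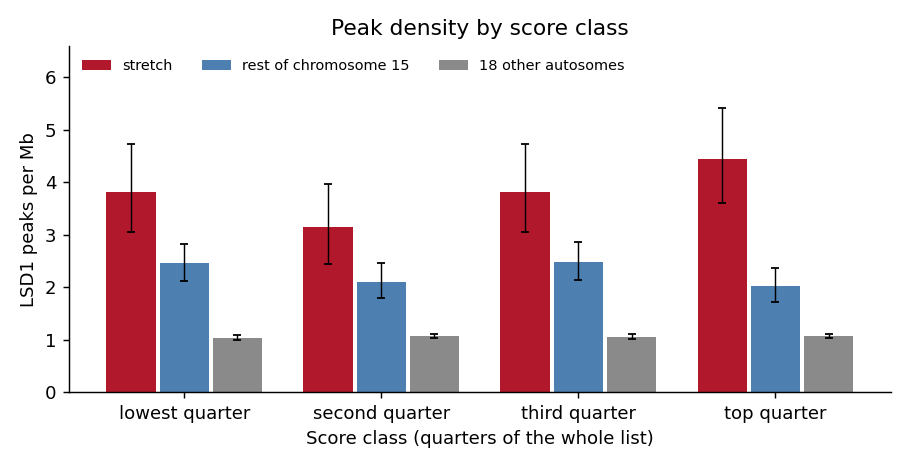
LSD1 peaks per Mb (y axis) in 4 classes of score, cut at the quartiles of the whole list, for the stretch (red), the rest of chromosome 15 (blue) and the 18 other autosomes (grey). Error bars are exact Poisson 95% intervals of the counts, and the stretch stands highest in each class, from 3.14 peaks per Mb in the second class to 4.45 in the top class.

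Peaks of the stretch were on the long side. Their median length was 490 bp (interval 461 to 526), with quartiles of 364 and 704 bp and a range from 232 to 2094 bp. The median was 450 bp (432 to 473) in the rest of chromosome 15 and 441 bp (436 to 445) in the other autosomes. The interval of the stretch lay above that of the other autosomes and overlapped that of the rest of chromosome 15. Among the 18 other autosomes taken singly, median lengths ran from 417 bp (chromosome 9) to 486 bp (chromosome 11). The stretch lay just beyond the top of that range, but its interval held the 486 bp of chromosome 11. Those are whole chromosomes, while the stretch is a part chosen for density. In windows of 20 or more peaks the medians were close, at 541 bp in the stretch and 531 bp (508 to 556) in the other autosomes.

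The upper part of the length distribution held most of this difference. In the class of 615 bp or longer, which is the top class when the list is cut at its quartiles of length, the stretch held 116 peaks, 5.14 times the density of the other autosomes (4.23 to 6.20). In the class from 360 to 440 bp it held 58, at 2.46 times (1.86 to 3.19), and these intervals do not overlap. The class under 360 bp was at 3.48 times (2.75 to 4.35) and that from 441 to 614 bp at 3.36 times (2.66 to 4.20).

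Length and score, which the caller set from the same libraries, went together. Spearman's rho between them was 0.775 over the 335 members, 0.721 in the rest of chromosome 15 and 0.688 in the other autosomes. In the top class of score the members were a median of 741 bp long and the peaks of the other autosomes 662.5 bp. In the lowest class these medians were 316.5 and 338.5 bp.

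Very long peaks were few. In the stretch 24 peaks (7.16%, interval 4.64 to 10.5%) were 1 kb or longer, against 7.62% in the rest of chromosome 15 and 5.45% (5.01 to 5.92%) in the other autosomes. These shares do not differ beyond their intervals. Only 1 member was 2 kb or longer, against 94 peaks of the other autosomes, and 126 peaks of the list were longer than it. The 24 long members lay in 12 of the 22 windows, with 5 of them from 62 to 63 Mb, 4 from 66 to 67 Mb and 3 from 64 to 65 Mb.

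The 10 highest-scoring members were spread along the stretch and lay in 8 of its 22 windows. The first was a 909 bp peak at chr15:62867554-62868462 with a score of 734.1. It was followed by a 923 bp peak at chr15:67188969-67189891 (score 679.21) and a 1074 bp peak at chr15:59667729-59668802 (648.24). The first and the third of these stood alone at 10 kb, with the nearest starts 13.7 and 40.6 kb away. In the whole list 46 peaks scored above the top member, of which 3 were elsewhere on chromosome 15 and 30 on the other autosomes.

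The next 3 were at chr15:56672923-56673686 (score 604.12), chr15:52759295-52760448 (592.79) and chr15:57399272-57400253 (558.32). Then came chr15:66564063-66565091 (445.04), chr15:62118043-62119422 (432.7), chr15:55681271-55682259 (397.46) and chr15:66714471-66716066 (380.95). All 10 were 764 to 1596 bp long, beyond the upper quartile of the stretch. Of the 10, 5 had another start within 10 kb and 5 had none.

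Although length and score went together over the stretch, some of the longest members scored far below the strongest. The longest, 2094 bp at chr15:54963695-54965788, scored 121.58 and ranked 96th by score. The peak at chr15:64187227-64188633 was 1407 bp long with a score of 106. Another, at chr15:64453394-64454719, was 1326 bp long and scored 75.61, below the median of the stretch. The other 2 of the 5 longest were among the 10 highest-scoring: those at chr15:66714471-66716066 (1596 bp) and chr15:62118043-62119422 (1380 bp).

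**Figure D4:**
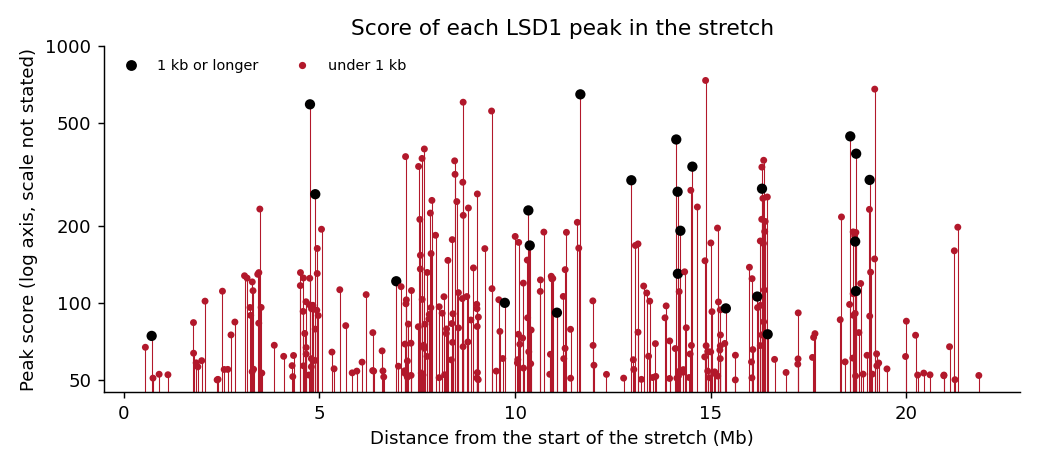
Score of each of the 335 members (y axis, log axis, scale not stated by the authors) at its distance in Mb from the start of the stretch (x axis); black points are the 24 peaks of 1 kb or longer. High scores occur in each raised block, while no peak of the first 2 windows scores above 83.96.

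Neighbouring starts in the stretch were a median of 26.0 kb apart, with quartiles of 8.59 and 73.3 kb and a mean of 63.8 kb. In the rest of chromosome 15 the median spacing was 42.95 kb, and in the other autosomes 87.9 kb. Of the 334 spacings, 12 were at most 1 kb, 92 at most 10 kb, and 27 over 200 kb. Those 27 took up 8.84 Mb, 40.2% of the stretch. The coefficient of variation of the spacings, their SD divided by their mean, was 1.50 in the stretch. This is inside the range of the other autosomes taken singly, 1.26 (chromosome 6) to 2.01 (chromosome 8), so peaks of the stretch were about as unevenly spaced as on a whole autosome.

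The closest starts were 463 bp apart, at chr15:64264928-64265279 and chr15:64265391-64266067, with 111 bp between the peaks. The longest interval, 653 kb, ran from the start at 49129670 to that at 49782685, in the sparse first part. The next, 645 kb, ran from 65662323 to 66307329, across the sparse window from 65 to 66 Mb. The third, 537 kb, ran from 69311455 to the last member at 69848847.

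Peaks of the stretch were more often near another peak than those of the other autosomes at distances of 5 kb and more, while up to 3 kb the shares did not differ beyond their intervals. Against the rest of chromosome 15 the intervals overlapped up to 10 kb and parted at 20 kb. Of the 335 members, 156 (46.6%, interval 41.1 to 52.1%) had another start no more than 10 kb away, against 39.8% (36.2 to 43.5%) in the rest of chromosome 15 and 31.7% (30.8 to 32.6%) in the other autosomes. Within 50 kb the shares were 83.9%, 74.5% and 56.7%. Within 1 kb they were 6.87% (4.40 to 10.1%), 8.32% and 7.78%, and within 2 kb 11.9% (8.67 to 15.9%), 15.7% and 15.6%. Within 3 kb they were 21.5% (17.2 to 26.3%), 22.1% and 19.5%. Up to 3 kb the intervals of the stretch held the share of the other autosomes, and from 5 kb upward they lay above it (31.3%, 26.4 to 36.6%, against 24.5%). The share within 5 kb was 28.8% (25.5 to 32.3%) in the rest of chromosome 15. Within 20 kb the shares were 65.4% (60.01 to 70.46%) in the stretch and 52.2% (48.4 to 55.9%) in the rest of chromosome 15. The stretch was chosen for dense peaks, which brings neighbours closer, so these differences do not show grouping beyond density. Other raised stretches, described below, also had high shares within 10 kb. They ran from 40.8% (chromosome 15, 21 to 37 Mb) to 91.2% (chromosome 4, 140 to 150 Mb).

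**Figure D5:**
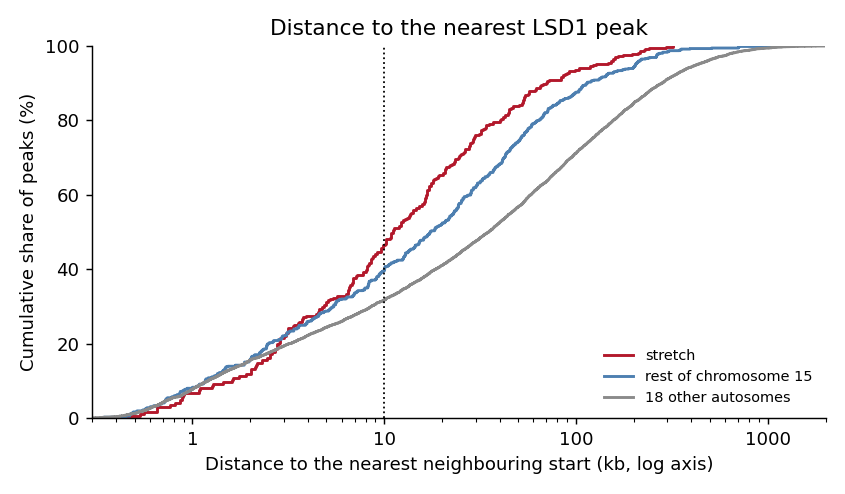
Cumulative share of peaks in percent (y axis) by the distance in kb to the nearest neighbouring start (x axis, log axis) for the stretch (red), the rest of chromosome 15 (blue) and the 18 other autosomes (grey); the dotted line marks 10 kb. The red curve runs at or below the grey one up to 2 kb and above it from 5 kb, with 46.6% against 31.7% at 10 kb.

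Groups of closely spaced peaks in the stretch were small, and most were pairs. When starts that follow each other within 10 kb were joined, 179 members stood alone and 156 formed 64 groups: 46 of 2 peaks, 12 of 3, 4 of 4 and 2 of 6. No group had more than 6. The rest of chromosome 15 had no group of 10 or more either, and its largest held 9, whereas the other autosomes had 33 groups of 10 or more, the largest with 44. Those 33 held 5.45% of the peaks of the other autosomes. Apart from such large groups, sizes were much alike. Groups of 3 or more were 18 of 64 in the stretch, 34 of 113 in the rest of chromosome 15 and 276 of 1065 in the other autosomes.

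The groups of 6 differed from each other. The one at chr15:57019564-57037216 spanned 17.7 kb, with scores from 51.12 to 265.7 and a median length of 399.5 bp. The one at chr15:66689200-66716066 spanned 26.9 kb, with scores from 52.06 to 380.95 and a median length of 983 bp, and it included the second longest member. Among the groups of 4, the one at chr15:56663894-56676473 held the fourth highest score of the stretch, 604.12, and a median score of 257. The one at chr15:64302216-64309785 had a median score of 245 and covered 45.7% of its 7.6 kb. In contrast, the one at chr15:63242507-63247177 had no score above 94.11 over 4.7 kb.

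With a joining distance of 50 kb, 5 groups had 10 peaks or more and held 60 peaks, 17.9% of the stretch. That share was 11.1% in the rest of chromosome 15 and 11.5% in the other autosomes. The stretch was chosen for dense peaks, so the higher share only describes it. The largest group of the stretch, at chr15:64264928-64390406, held 14 peaks over 125 kb with a median score of 182. It contained the fullest 100 kb window of the stretch, with 11 peaks. The next, at chr15:55526959-55698131, held 13 peaks over 171 kb with a median score of 103. The third, at chr15:62845724-63099597, held 12 peaks over 254 kb. That group joined the highest score of the stretch, 734.1, with a median score of 64.7, so its other members were mostly weak.

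Grouped members had higher medians of score and length than single ones, but the intervals overlapped. Overlap does not show that the classes are alike. The median score was 90.6 (interval 79.3 to 98.0) for the 156 members in groups within 10 kb and 77.6 (68.4 to 91.3) for the 179 single ones, with overlapping intervals. Median lengths were 514 bp (470 to 562) and 461 bp (421 to 521). In the other autosomes, where counts were larger, the median scores were 84.7 (82.5 to 86.7) against 76.08 (75.04 to 77.11). Median lengths there were 489 bp (479 to 500) against 426 bp (422 to 430), so both went the same way as in the stretch, with intervals apart. Over the 92 neighbouring starts within 10 kb in the stretch, the higher score was a median of 1.68 times the lower, and rho between their scores was 0.14. For length, rho was 0.26. Pairs in larger groups share peaks, and no value for more distant pairs is given, so these values only describe the pairs.

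On the scale of 100 kb, the stretch still held empty sequence. Of its 220 windows of 100 kb, 82 (37.3%) held no peak, against 54.3% in the rest of chromosome 15 and 73.6% in the other autosomes. Windows of 5 or more peaks made up 14 of the 220 (6.36%), against 2.08% and 0.653%. The highest count in the stretch, 11, was matched in the rest of chromosome 15 and was below the 37 of the other autosomes.

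Other raised stretches differed in how like this one they were. The interval from 3 to 13 Mb of chromosome 15 held 15.1 peaks per Mb, with a median score of 84.23 (75.04 to 96.1), a median length of 493 bp (445 to 533) and 47.0% of peaks within 10 kb of another start. The medians and the share lay within the intervals of the stretch. From 21 to 37 Mb the density was 12.56, with a median score of 81.02, a median length of 440 bp and no group of 10 or more peaks within 50 kb. From 38 to 45 Mb the density was 14.1, with a median length of 404 bp (385 to 443), below the interval of the stretch.

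On chromosome 8, from 80 to 100 Mb, the density was 18.55, with a median score of 71.1 (67.1 to 73.7), below the interval of the stretch. There 44.5% of peaks lay in groups of 10 or more within 50 kb, against 17.9% in the stretch. On chromosome 4, from 140 to 150 Mb, the density was 35.1, that share was 94.9%, and 25.6% of peaks were 1 kb or longer. These intervals were themselves picked for their density from the same list, so the values are set side by side without a test.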

How the data were processed

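LSD1 ChIP and input libraries of differentiating C2C12 cells, 1 each, were compared by the authors. BWA aligned the reads to mm9, per the submitters' processing notes. The caller was MACS in Galaxy, per the file headers. For versions, settings and read filters, nothing is given in the sources used here. For each peak the deposited list has a position and 1 score, of unstated scale. Read numbers are not part of it, which leaves the sequencing depth unknown.

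Positions are 1-based. Spans run from the first to the last peak of a chromosome. Medians have order-statistic and shares Clopper-Pearson 95% intervals. Functions were tested on simulated data. The named peaks follow a rule: the 10 highest scores, the 5 longest, the border peaks, the extreme spacings and the largest groups. The 50 kb groups, classes of windows and comparison stretches were added after values were seen. The stretch and these choices were made with earlier results of these data known. No mm9 genome was used here, so no sequence is printed. The software was matplotlib 3.10.9, pandas 2.3.3, scipy 1.17.1 and numpy 2.4.6 under Python 3.11.15.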

Additional observations from a re-analysis of the deposited data

How the results depend on the processing

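The density ratios stayed within their main intervals under 5 other settings (stricter score, groups counted once, occupied windows only, borders at 50 and 69 Mb, no very dense groups), at 3.248 to 3.974 to the other autosomes and 1.597 to 1.886 to the rest of chromosome 15. Without the 5 fullest windows they were 2.651 and 1.237, lower by construction. Among peaks reaching the list's median score, 36.81% of members had a neighbour within 10 kb. The rest of chromosome 15 had 28.12% and the other autosomes 26.13%. Median length of the members was 635.5 bp (600.5 and 558 bp in those sets) and median score 124.8 (113.8 and 119.8). The share of peaks of 1 kb or longer was 12.09% (12.78% and 9.54%). That setting removes low scores, and length goes with score. The share with a neighbour was 6.866% for 1 kb and 83.88% for 50 kb. Joining peaks less than about 1 kb apart gave 11.36% of 1 kb or longer, against 12.56% in the rest of chromosome 15 and 8.745% in the other autosomes. The other settings left these values within their intervals. The number of weaker sites that were not called is unknown. No paired analysis was possible because there was a single library of each kind, and no replicate could be left out.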
